A study of Mus musculus with 16 samples.

Results

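The blood-brain barrier endothelial genes are 10 genes of brain capillary transport, junctions and surface: Abcb1a, Abcg2, Slco1a4, Slco1c1, Slc2a1, Mfsd2a, Cldn5, Ocln, Ly6c1 and Pecam1. A gene was read from the array where the annotation gives a probe set that gene's symbol alone. Of the 10 genes, 9 have such a probe set, 1 each, among 19938 genes read in the same way. Ly6c1 sits only on 2 probe sets whose annotation also names Ly6c2, so no value is given for it.

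The study profiled total RNA of 16 mouse brain samples on Affymetrix arrays, in 4 groups of 4 arrays. PDGF+p53-/- tumours are labelled as overexpressing Pdgfb, knocked out for Trp53 and wild type for Rbpj; a retrovirus carrying PDGF-B and Cre recombinase had been put into mice with floxed p53. PDGF+p53-/-RBPjk-/- tumours came from the same virus in mice with floxed p53 and RBPjk, and carry the same Pdgfb label with both genes knocked out. p53-/-RBPjk-/- tumours are labelled as knocked out for both genes with Pdgfb wild type, after deletion in Hes5+ cells by the CreERT2 transgene Hes5::CreERT2. Control samples are normal brain tissue, labelled wild type for all 3 genes. Tumour tissue was recognised by a Cre-inducible GFP reporter and dissected when the mice had symptoms; the labels used here state no age. The dissected tissue was not sorted, so vessel cells, tumour cells and remaining brain tissue were measured together, and fewer cells of a type and less RNA per cell cannot be told apart in such samples. The labels do not say that the 4 arrays of a group came from separate animals, and p-values then measure only the spread between these samples.

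Brain capillaries form a barrier because their endothelial cells are sealed by tight junctions, carry few transport vesicles, pump many drugs back into the blood and take up nutrients through dedicated carriers. This state depends on Wnt signals to the endothelium and on contact with pericytes and astrocyte endfeet. Vessels of malignant brain tumours are known to leak, and the barrier state is then lost to a varying degree. Several of the genes are not exclusive to endothelium: Slco1c1 is also made by astrocytes, Slc2a1 by many cells, and Abcg2 by some stem cells.

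Promoter sequences are shown for the 3 transporter genes that were lower in all 3 tumour types, for Abcb1b, the close relative of Abcb1a that was higher in all 3, and for Cldn5, which was called in no comparison. They come from RefSeq with build GRCm38.p6 and run from 250 bases before to 50 bases after the annotated start, 300 bases each, written 5′ to 3′ on the gene's strand. The windows are chr5:8566841-8567140 (plus strand) for Abcb1a, chr5:8797897-8798196 (plus strand) for Abcb1b, chr6:141856171-141856470 (minus strand) for Slco1a4, chr6:141524104-141524403 (plus strand) for Slco1c1 and chr16:18776597-18776896 (plus strand) for Cldn5. Capitals mark matches, on either strand, to 6 short motifs: CTTTGA, the core bound by TCF/LEF factors of the Wnt pathway, AGGAAG of ETS factors, the CACGTG E-box, the GGGCGG GC box, the CCAAT box and TATAAA.
Abcb1a: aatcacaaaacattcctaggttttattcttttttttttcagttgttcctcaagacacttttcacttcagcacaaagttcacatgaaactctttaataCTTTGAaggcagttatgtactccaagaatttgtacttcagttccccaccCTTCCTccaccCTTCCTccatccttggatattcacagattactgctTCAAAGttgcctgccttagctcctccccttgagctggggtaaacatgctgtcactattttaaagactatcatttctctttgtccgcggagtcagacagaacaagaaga
Abcb1b: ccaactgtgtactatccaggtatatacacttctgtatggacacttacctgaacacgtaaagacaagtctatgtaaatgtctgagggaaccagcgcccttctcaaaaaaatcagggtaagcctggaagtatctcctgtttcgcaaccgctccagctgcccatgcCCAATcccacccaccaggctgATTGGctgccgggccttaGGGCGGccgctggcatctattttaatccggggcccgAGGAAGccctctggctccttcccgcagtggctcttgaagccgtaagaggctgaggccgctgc
Slco1a4: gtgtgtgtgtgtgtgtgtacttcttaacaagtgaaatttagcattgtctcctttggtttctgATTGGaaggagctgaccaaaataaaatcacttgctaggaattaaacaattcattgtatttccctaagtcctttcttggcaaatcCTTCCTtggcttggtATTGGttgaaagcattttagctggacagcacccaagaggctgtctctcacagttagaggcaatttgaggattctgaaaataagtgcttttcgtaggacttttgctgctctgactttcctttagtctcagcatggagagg
Slco1c1: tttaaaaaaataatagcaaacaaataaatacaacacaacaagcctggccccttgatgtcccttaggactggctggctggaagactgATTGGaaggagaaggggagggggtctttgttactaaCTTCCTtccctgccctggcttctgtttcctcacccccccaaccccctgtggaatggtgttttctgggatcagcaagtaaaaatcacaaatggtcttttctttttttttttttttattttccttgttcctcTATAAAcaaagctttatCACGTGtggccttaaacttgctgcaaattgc
Cldn5: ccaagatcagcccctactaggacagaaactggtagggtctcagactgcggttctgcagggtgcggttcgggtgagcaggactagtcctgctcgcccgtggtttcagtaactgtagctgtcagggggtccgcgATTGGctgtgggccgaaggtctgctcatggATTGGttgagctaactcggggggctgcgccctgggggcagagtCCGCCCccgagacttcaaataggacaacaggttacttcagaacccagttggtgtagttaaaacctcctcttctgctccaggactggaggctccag
The Abcb1a window held 2 CTTTGA and 2 AGGAAG matches and none of the other motifs. In the Abcb1b window there were 1 AGGAAG, 1 GGGCGG and 2 CCAAT matches. Slco1a4 had 1 AGGAAG and 2 CCAAT matches, and Slco1c1 had 1 match each to the ETS, E-box, CCAAT and TATA motifs. The Cldn5 window held 1 GGGCGG and 2 CCAAT matches. No printed match overlaps a match to another motif.

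Promoter entries were found for 9 of the 10 genes, in 13 windows, since some genes have several starts. CTTTGA was present in the windows of 2 of these genes, Abcb1a and Mfsd2a, and in 16% of all 32851 promoter windows. AGGAAG was present for 5 genes and in 35.4% of all windows. CCAAT occurred for 8 genes and in 37.4% of all windows, GGGCGG for 4 genes and in 35.7%, TATAAA for 4 genes and in 13.6%, and CACGTG for 1 gene and in 7.2%. A gene with several windows counts if any of them has the motif. The GC content was 40.3% for Abcb1a, 40.7% for Slco1a4 and 42.0% for Slco1c1, against 55.0% for Abcb1b, 58.3% for Cldn5 and a median of 52.7% over all windows. A match describes letters in a window and is neither a site nor a cause. In the annotation no protein-coding gene starts between Abcb1a and Abcb1b on chromosome 5, while Slco1b2 and Gm5724 start between Slco1c1 and Slco1a4 on chromosome 6.

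The values are RMA log2 expression as deposited, on which a difference of 1 is a 2-fold change. All 16 arrays entered 1 limma fit, and a gene was called where its p-value, adjusted by Benjamini-Hochberg over the 19938 genes, was under 0.05. Array medians lay between 5.97 and 6.06, and arrays of a group correlated at 0.973 to 0.99 over all genes. All 9 neuron marker genes measured were lower in each tumour type and all 7 genes of glial precursors and cycling cells were higher. The summed markers set PDGF+p53-/- replicate 3 apart: its neuron gene mean was 8.78, against 7.19 to 7.36 in the other arrays of its group, 6.85 to 8.25 in PDGF+p53-/-RBPjk-/- and 6.30 to 7.63 in p53-/-RBPjk-/- tumours, and 10.38 to 10.57 in control brain. Its mean over 25 genes of all endothelium, 6.33, was the lowest of its group. Rbpj averaged 7.73 ± 0.15 in PDGF+p53-/-RBPjk-/- tumours and 7.78 ± 0.12 in p53-/-RBPjk-/- tumours, against 8.32 ± 0.16 in PDGF+p53-/- tumours and 8.01 ± 0.20 in control brain (SD, n = 4 each). Whether its probes lie in the deleted part is not known here, so this level does not check the deletion. Pdgfb averaged 6.03 ± 0.21 in PDGF+p53-/-, 6.02 ± 0.13 in PDGF+p53-/-RBPjk-/- and 5.53 ± 0.28 in p53-/-RBPjk-/- tumours, against 5.89 ± 0.24 in control brain (SD, n = 4 each), so the array does not show the labelled overexpression. Whether its probe set reads the viral transcript is not known here. Xist and Y-linked genes gave a female pattern in 1 of 4 PDGF+p53-/-, 1 of 4 PDGF+p53-/-RBPjk-/- and 4 of 4 p53-/-RBPjk-/- tumours, against 2 of 4 control samples, so sex was also run as a term in the fit. Of 7 oligodendrocyte genes 5 were lower in each tumour type, and of 7 choroid plexus genes 3, 4 and 3 were lower and 0, 0 and 1 higher. The choroid plexus mean was 5.40 to 6.14, 5.51 to 5.96 and 5.54 to 5.82 in the 3 tumour types, against 5.91 to 7.33 in control brain. Of 8 microglia and macrophage genes 1, 2 and 2 were higher and 0, 0 and 5 lower, and of 6 genes of blood monocytes and lymphocytes 1, 0 and 1 were higher and none lower. Over all genes, 13.6%, 15.7% and 16.4% were higher and 17.6%, 17.9% and 20.4% lower in the 3 tumour types against control brain.

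In PDGF+p53-/- tumours 5 of the 9 measured barrier genes passed the test against control brain, 1 higher and 4 lower, where 31.1% of all genes were called, 13.6% higher and 17.6% lower. In PDGF+p53-/-RBPjk-/- tumours 6 passed, 1 higher and 5 lower, where 33.6% of all genes were called, 15.7% higher and 17.9% lower. In p53-/-RBPjk-/- tumours 6 passed, all of them lower, where 36.8% of all genes were called, 16.4% higher and 20.4% lower. The tumour and control arrays did not overlap for 4 of the 9 genes in PDGF+p53-/- tumours, beside 30% of all genes. In PDGF+p53-/-RBPjk-/- tumours this held for 5, beside 34.5%, and in p53-/-RBPjk-/- tumours for 5, beside 34.4%. The median log2 difference of the 9 genes was -0.52, -0.60 and -0.90 in these 3 comparisons, beside -0.04, -0.03 and -0.02 over all genes. The efflux pump Abcb1a, both organic anion transporters and the junction protein Ocln were lower in each tumour type, the pump Abcg2 was higher in both PDGF tumour types, and Cldn5 and Pecam1 were not called. The 3 comparisons share the same 4 control arrays and are therefore not independent of each other.

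**Figure D1:**
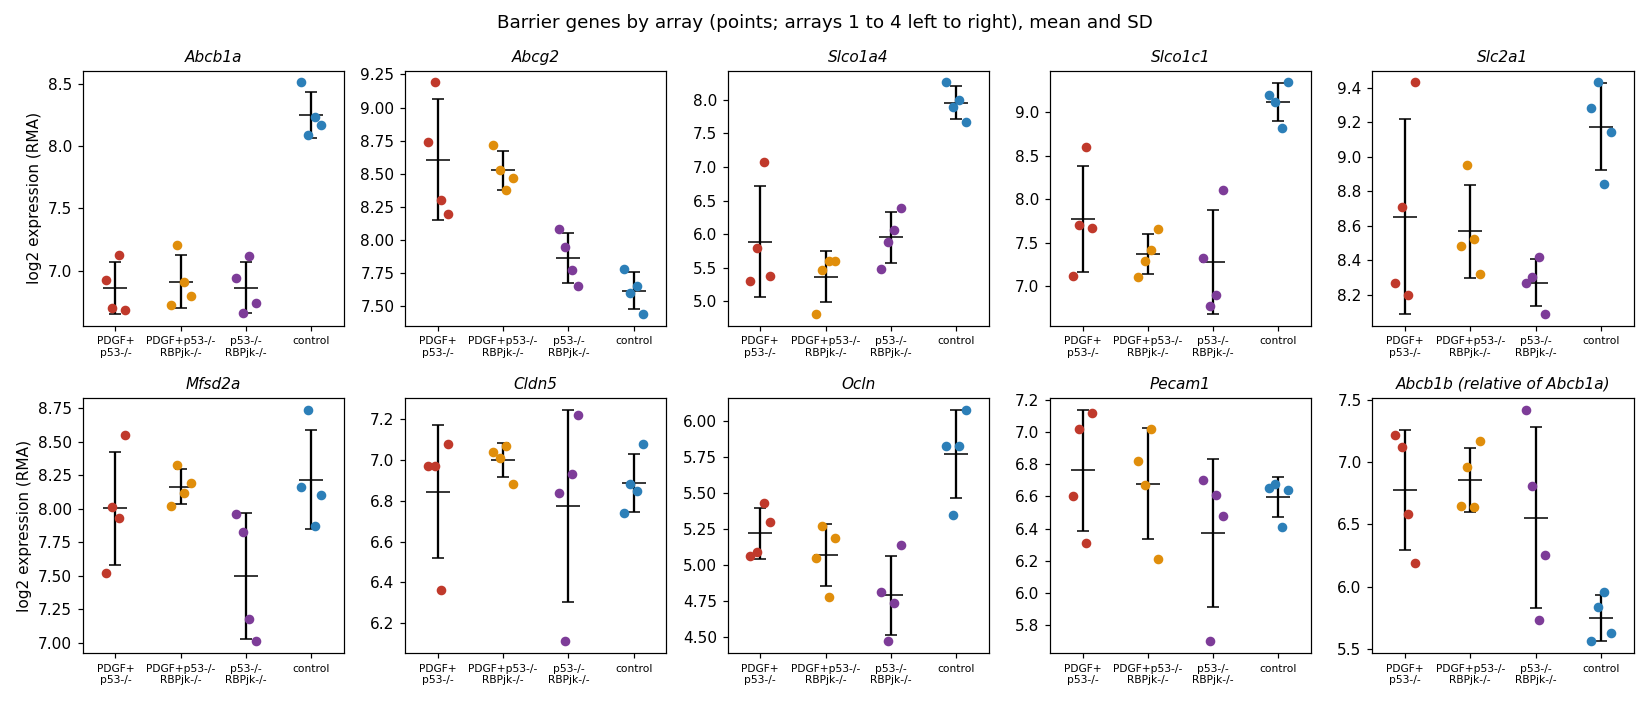
Log2 RMA expression of the 9 measured barrier genes and of Abcb1b in each of the 16 arrays, by group, with 1 panel per gene and its own axis range; points are arrays, the horizontal bar is the group mean and the error bar the SD (n = 4). For Abcb1a every tumour array lies at or below 7.21 and every control array at or above 8.09, while for Cldn5 and Pecam1 the groups overlap.

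Abcb1a encodes P-glycoprotein, the pump that returns many drugs to the blood. Its level was 6.93, 6.70, 7.13 and 6.69 in the PDGF+p53-/- arrays, 6.73, 7.21, 6.91 and 6.80 in the PDGF+p53-/-RBPjk-/- arrays and 6.94, 6.66, 7.12 and 6.74 in the p53-/-RBPjk-/- arrays, against 8.51, 8.09, 8.23 and 8.17 in control brain. No tumour array reached the lowest control array, and the 3 tumour types covered almost the same range. The log2 difference from control brain was -1.39 ± 0.15 (SE; limma, adjusted p = 1.24e-06) for PDGF+p53-/- tumours, -1.34 ± 0.15 (adjusted p = 1.44e-06) for PDGF+p53-/-RBPjk-/- tumours and -1.39 ± 0.15 (adjusted p = 6.53e-07) for p53-/-RBPjk-/- tumours. This is 2.62-fold, 2.53-fold and 2.62-fold lower. Between tumour types the differences of Abcb1a were 0.05, -0.05 and 0.00, each with a 95% interval within 0.36 of 0.

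Mice have a second P-glycoprotein gene, Abcb1b, the neighbour of Abcb1a, and its level ran the other way. It was 7.22, 7.12, 6.58 and 6.19 in PDGF+p53-/- tumours, 6.65, 6.96, 6.64 and 7.17 in PDGF+p53-/-RBPjk-/- tumours and 7.42, 6.81, 5.73 and 6.25 in p53-/-RBPjk-/- tumours, against 5.56, 5.84, 5.96 and 5.63 in control brain. All arrays of both PDGF tumour types lay above control brain, while 1 p53-/-RBPjk-/- array, replicate 3, lay within the control range. The log2 difference was 1.03 ± 0.29 (SE; limma, adjusted p = 0.00998), 1.11 ± 0.29 (adjusted p = 0.00547) and 0.80 ± 0.29 (adjusted p = 0.0347) for the 3 tumour types in the same order. The p53-/-RBPjk-/- call was lost without control replicate 1, 2 or 4 or p53-/-RBPjk-/- replicate 1 or 2, with adjusted p between 0.0533 and 0.136, and the exact two-sided permutation test gave p = 0.0857. The difference was 0.51 without p53-/-RBPjk-/- replicate 1. The call was also lost with a sex term (adjusted p = 0.0641) and in a fit to the 2 groups alone (0.0569). The 2 genes are close in sequence, and how far a probe set of one also takes up RNA of the other was not tested.

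Abcg2 encodes the breast cancer resistance protein, the other main drug pump of brain capillaries. Its level was 8.74, 9.19, 8.30 and 8.20 in PDGF+p53-/- tumours, 8.72, 8.53, 8.38 and 8.47 in PDGF+p53-/-RBPjk-/- tumours and 8.08, 7.95, 7.77 and 7.65 in p53-/-RBPjk-/- tumours, against 7.78, 7.60, 7.65 and 7.44 in control brain. The PDGF tumours lay above all control arrays, and the p53-/-RBPjk-/- tumours lay between, overlapping control brain. The log2 difference was 0.99 ± 0.18 (SE; limma, adjusted p = 0.000303) for PDGF+p53-/- and 0.91 ± 0.18 (adjusted p = 0.000582) for PDGF+p53-/-RBPjk-/- tumours, 1.98-fold and 1.88-fold higher. For p53-/-RBPjk-/- tumours it was 0.25, with a 95% interval of -0.13 to 0.62 (adjusted p = 0.315). Of the 9 measured genes, only Abcg2 rose in a tumour type, and the 2 pumps moved in opposite directions in the PDGF tumours.

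Slco1a4 encodes an organic anion transporter that carries bile acids, hormones and drugs across brain endothelium. It was measured at 5.30, 5.80, 7.08 and 5.38 in PDGF+p53-/- tumours, 4.81, 5.47, 5.60 and 5.60 in PDGF+p53-/-RBPjk-/- tumours and 5.48, 5.88, 6.07 and 6.39 in p53-/-RBPjk-/- tumours, against 8.26, 7.90, 8 and 7.67 in control brain. Every tumour array was below every control array. The fall was the largest among the 9 genes in each comparison with control brain: -2.07 ± 0.31 (SE; limma, adjusted p = 5.29e-05), -2.59 ± 0.31 (adjusted p = 4.17e-06) and -2 ± 0.31 (adjusted p = 4.77e-05) on the log2 scale for the 3 tumour types in the same order. These are 4.19-fold, 6.02-fold and 4.01-fold lower. The highest tumour value, 7.08, is that of PDGF+p53-/- replicate 3, the array with the highest neuron gene mean of its group, and without it the difference was -2.46 (adjusted p = 2.56e-07). Of its relatives, Slco1a1, Slco1a5 and Slco1a6 were measured with differences between -0.20 and 0.44 in the 3 comparisons and none was called. Their control brain means were only 2.68, 3.76 and 3.65, where array medians lay between 5.97 and 6.06. Levels so low leave little room for a fall to be seen.

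Slco1c1 encodes the transporter that brings thyroxine into the brain. Its level was 7.12, 7.70, 8.60 and 7.67 in PDGF+p53-/- tumours, 7.11, 7.29, 7.42 and 7.66 in PDGF+p53-/-RBPjk-/- tumours and 7.33, 6.78, 6.90 and 8.10 in p53-/-RBPjk-/- tumours, against 9.20, 9.11, 8.82 and 9.34 in control brain. The groups did not overlap, and PDGF+p53-/- replicate 3 was again the tumour array closest to control brain. The log2 difference was -1.35 ± 0.28 (SE; limma, adjusted p = 0.00116), -1.75 ± 0.28 (adjusted p = 9.11e-05) and -1.84 ± 0.28 (adjusted p = 4.1e-05), which is 2.55-fold, 3.36-fold and 3.59-fold lower. Without PDGF+p53-/- replicate 3 the first of these was -1.62 (adjusted p = 8.63e-05). Astrocyte markers moved with it: 9 of 12 were lower in each tumour type, with list means of 7.56 to 8.81, 7.67 to 8.23 and 7.43 to 7.75 in the 3 tumour types against 9.24 to 9.43 in control brain, and their part in the result was not tested.

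**Figure D2:**
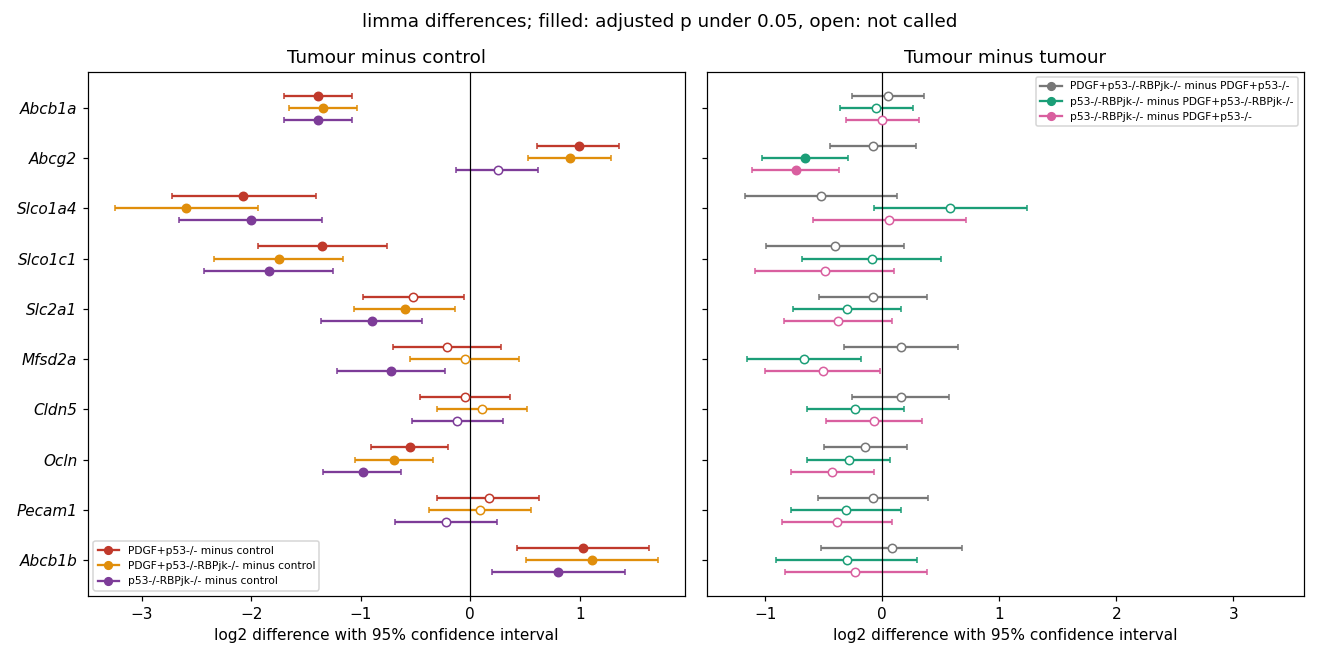
Log2 differences of the 9 barrier genes and Abcb1b from the limma fit, with 95% confidence intervals; the left panel sets each tumour type against control brain and the right panel sets tumour types against each other, with filled points where the adjusted p was under 0.05. On the left Slco1a4, Slco1c1 and Abcb1a lie to the left of 0 in all 3 tumour types, and on the right only the 2 Abcg2 points of p53-/-RBPjk-/- tumours are filled.

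The nutrient carriers showed smaller differences. Slc2a1 encodes GLUT1, the glucose carrier of the barrier, and was at 8.27, 8.71, 8.20 and 9.43 in PDGF+p53-/- tumours, 8.48, 8.95, 8.52 and 8.32 in PDGF+p53-/-RBPjk-/- tumours and 8.27, 8.30, 8.42 and 8.09 in p53-/-RBPjk-/- tumours, against 9.28, 9.43, 8.84 and 9.14 in control brain. PDGF+p53-/- replicate 4 equalled the highest control array, whereas all p53-/-RBPjk-/- arrays were below control brain. The log2 difference was -0.90 ± 0.22 (SE; limma, adjusted p = 0.00308) for p53-/-RBPjk-/- tumours, 1.87-fold lower. For PDGF+p53-/-RBPjk-/- tumours it was -0.60 ± 0.22 (adjusted p = 0.042); leaving out control replicate 1, 2 or 4, or replicate 1, 3 or 4 of these tumours, ended the call, with adjusted p of 0.0689 to 0.118. For PDGF+p53-/- tumours it was -0.52 (95% interval -0.98 to -0.06, adjusted p = 0.0835), and -0.78 without replicate 4 (adjusted p = 0.00286). Slc2a3, the glucose carrier of neurons, fell in all 3 tumour types, by 0.98, 0.82 and 1.17 on the log2 scale (adjusted p = 0.000231, 0.00104 and 2.56e-05). Neuron markers moved with it, and their part in the result was not tested. The remaining relatives measured, Abcb4, Slc2a4, Mfsd2b and Cldn3, had differences between -0.41 and 0.54, and none was called. They were dim in control brain, at means of 5.80, 4.74, 5.77 and 5.82, where the median over all genes was 6.29.

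Mfsd2a carries lysophosphatidylcholine with docosahexaenoic acid into the brain and holds back caveolar vesicle transport. It was at 7.52, 8.01, 7.93 and 8.55 in PDGF+p53-/- tumours, 8.02, 8.33, 8.12 and 8.19 in PDGF+p53-/-RBPjk-/- tumours and 7.96, 7.83, 7.18 and 7.01 in p53-/-RBPjk-/- tumours, against 8.16, 8.74, 7.87 and 8.10 in control brain. In p53-/-RBPjk-/- tumours replicates 3 and 4 were low and replicates 1 and 2 near the lower control arrays. The log2 difference there was -0.72 ± 0.23 (SE; limma, adjusted p = 0.0211), 1.65-fold lower; the call was lost without control replicate 2 or p53-/-RBPjk-/- replicate 3 or 4 (adjusted p = 0.0681 to 0.086) and with a sex term (-0.58, adjusted p = 0.091), and the exact two-sided permutation test gave p = 0.0571. PDGF+p53-/- and PDGF+p53-/-RBPjk-/- tumours differed from control brain by -0.21 (95% interval -0.71 to 0.28) and -0.05 (-0.55 to 0.44), with adjusted p of 0.559 and 0.898.

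The 2 tight-junction genes are given in turn, and the difference between them was not tested. Cldn5, the most abundant claudin of brain endothelium, was at 6.97, 6.97, 6.36 and 7.08 in PDGF+p53-/- tumours, 7.04, 7.01, 7.07 and 6.88 in PDGF+p53-/-RBPjk-/- tumours and 6.84, 6.11, 6.93 and 7.22 in p53-/-RBPjk-/- tumours, against 6.74, 6.88, 6.85 and 7.08 in control brain. All 3 tumour types overlapped control brain, with log2 differences of -0.05 (95% interval -0.46 to 0.36), 0.11 (-0.30 to 0.52) and -0.12 (-0.53 to 0.30) and adjusted p of 0.894, 0.726 and 0.7. These intervals do not show that the levels were equal.

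Ocln, the tight-junction protein occludin, was at 5.06, 5.09, 5.43 and 5.30 in PDGF+p53-/- tumours, 5.05, 5.27, 4.78 and 5.19 in PDGF+p53-/-RBPjk-/- tumours and 4.81, 4.47, 4.74 and 5.14 in p53-/-RBPjk-/- tumours, against 5.83, 5.35, 5.83 and 6.08 in control brain. Only PDGF+p53-/- replicate 3 reached into the control range. The log2 difference was -0.55 ± 0.17 (SE; limma, adjusted p = 0.0173), -0.70 ± 0.17 (adjusted p = 0.00329) and -0.98 ± 0.17 (adjusted p = 0.000138) for the 3 tumour types in the same order, 1.47-fold, 1.62-fold and 1.98-fold lower. In PDGF+p53-/- tumours Ocln missed the threshold when control replicate 4 (adjusted p = 0.0654) or their own replicate 1 (0.0555) was left out. Its mean level lies under 6.29, the median over all genes, so Ocln is dropped where dim genes are left out. Of the other junction genes, Tjp1, F11r, Cgn, Lsr and Marveld2 had differences between -0.20 and 0.22 in the 3 comparisons and none was called. In control brain F11r, Cgn and Marveld2 averaged 6.18, 5.42 and 5.47, also under 6.29, while Tjp1 and Lsr averaged 10.49 and 7.03.

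Pecam1, the adhesion molecule CD31 found on endothelium of all vessels, was at 6.60, 7.02, 6.31 and 7.12 in PDGF+p53-/- tumours, 6.82, 6.67, 7.02 and 6.21 in PDGF+p53-/-RBPjk-/- tumours and 6.70, 5.70, 6.61 and 6.48 in p53-/-RBPjk-/- tumours, against 6.65, 6.68, 6.41 and 6.64 in control brain. Tumour arrays lay on both sides of control brain, with differences of 0.17 (95% interval -0.30 to 0.63), 0.09 (-0.38 to 0.55) and -0.22 (-0.69 to 0.24) and adjusted p of 0.633, 0.815 and 0.485. The lowest array was p53-/-RBPjk-/- replicate 2, which was also the lowest for Cldn5, and without it the Pecam1 difference of that tumour type was 0.00.

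Between tumour types 0 or 1 of the barrier genes were called, where few of all genes were called either. Loss of RBPjk within PDGF tumours, PDGF+p53-/-RBPjk-/- against PDGF+p53-/-, gave 0 of 9 calls by limma, where 0.0201% of all genes were called, 0.015% higher and 0.00502% lower. The groups overlapped for each of the 9 genes, and 3.17% of all genes did not overlap. No barrier gene had an unadjusted p under 0.05 there, and the exact permutation test called 0. The largest difference was that of Slco1a4, -0.52, with a 95% interval of -1.17 to 0.13. RBPjk-/- tumours without PDGF were then set against those with it, p53-/-RBPjk-/- against PDGF+p53-/-RBPjk-/-. These tumour types also differ in how the genes were deleted, by Hes5::CreERT2 in Hes5+ cells or by the retrovirus. PDGF and the way of deletion cannot be told apart here. This comparison gave 1 call, where 3.27% of all genes were called, 0.637% higher and 2.63% lower. This was Abcg2, lower by -0.66 ± 0.18 on the log2 scale (adjusted p = 0.0496), with no overlap between the groups, which held for 9.69% of all genes. Mfsd2a, at -0.67 ± 0.23, did not pass (adjusted p = 0.136), although its groups did not overlap either (exact permutation p = 0.0286, the smallest that 4 against 4 arrays can give).

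p53-/-RBPjk-/- tumours set against PDGF+p53-/- tumours also gave 1 call, where 5.54% of all genes were called, 1.93% higher and 3.61% lower. This too was Abcg2, at -0.74 ± 0.18 (adjusted p = 0.0205), with no overlap, which held for 9.75% of all genes. Ocln, at -0.43 (95% interval -0.78 to -0.07), and Mfsd2a, at -0.51 (-1 to -0.02), had adjusted p of 0.157 and 0.242. Leaving out replicate 2 of the PDGF+p53-/- tumours, or replicate 3 or 4 of the p53-/-RBPjk-/- tumours, ended this call (adjusted p = 0.0536 to 0.0618, with differences of -0.71 to -0.55), as did a fit to the 2 groups alone (0.112). That against PDGF+p53-/-RBPjk-/- was lost without any 1 of the control arrays, of the PDGF+p53-/-RBPjk-/- arrays, of p53-/-RBPjk-/- replicates 2 to 4 or of PDGF+p53-/- replicate 1 (adjusted p = 0.0547 to 0.142, with differences of -0.71 to -0.59). Sex moved with these groups, since all p53-/-RBPjk-/- tumours had the female pattern. The way of deletion moved with them too, by Hes5::CreERT2 in p53-/-RBPjk-/- tumours and by the retrovirus in both PDGF types. With a sex term in the fit both Abcg2 calls were lost, at adjusted p of 0.247 against PDGF+p53-/-RBPjk-/- and 0.132 against PDGF+p53-/- tumours.

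The endothelial genes outside these 10 were taken from lists. Of 25 genes of all endothelium 3 were higher and 3 lower in PDGF+p53-/- tumours, 4 and 4 in PDGF+p53-/-RBPjk-/- tumours and 2 and 5 in p53-/-RBPjk-/- tumours, with medians of 0.12, 0.05 and -0.06. Beside this, 13.6%, 15.7% and 16.4% of all genes were higher and 17.6%, 17.9% and 20.4% lower in the 3 tumour types. Cdh5, the VE-cadherin of all endothelial junctions, had differences of -0.06, -0.03 and -0.08, and none was called. Cd93, a receptor of growing vessels, was higher in all 3, by 2.30, 2.40 and 1.01 (limma, adjusted p = 9.91e-05, 5.6e-05 and 0.0383). Erg, an endothelial transcription factor, was higher in both PDGF types, by 0.70 and 1.11 (adjusted p = 0.00376 and 5.51e-05), and so was Ramp2, by 0.58 and 0.56 (adjusted p = 0.0103 and 0.0116). Tek, the receptor TIE2, fell by 1.26, 1.07 and 1.04 (adjusted p = 0.000319, 0.00122 and 0.0013), and the receptor phosphatase Ptprb fell by 0.65, 0.51 and 0.80 (adjusted p = 0.00197, 0.00963 and 0.000221). The adhesion receptor Adgrf5 fell by 0.56, 0.63 and 1 (adjusted p = 0.0376, 0.0193 and 0.000567), and in both PDGF types missed the threshold when single arrays were left out (up to 0.124 and 0.0653), and in PDGF+p53-/- tumours also with a sex term (0.0577). Cd34, a surface protein of endothelium and blood precursors, was higher by 0.58 in PDGF+p53-/-RBPjk-/- tumours (adjusted p = 0.0372). Nos3, the endothelial nitric oxide synthase, fell by 0.40 there and by 0.47 in p53-/-RBPjk-/- tumours (adjusted p = 0.0365 and 0.0122). In PDGF+p53-/-RBPjk-/- tumours both of these were lost when single arrays were left out (up to 0.116 and 0.13), and Nos3 also with a sex term (0.0651). In p53-/-RBPjk-/- tumours Flt1 (VEGF receptor 1) fell by 0.96 (adjusted p = 0.00031), and Kdr (VEGF receptor 2) was higher by 0.94 (adjusted p = 0.0187). The call of Cd93 in p53-/-RBPjk-/- tumours was lost without control replicate 1, 2 or 3 or p53-/-RBPjk-/- replicate 1, 3 or 4 (adjusted p = 0.0518 to 0.127), and that of Kdr without control replicate 2 (0.0501) or p53-/-RBPjk-/- replicate 2 (0.056, at a difference of 0.55). With a sex term both calls were lost (adjusted p = 0.0847 for Cd93 and 0.0651 for Kdr). Kdr was at 8.57 in p53-/-RBPjk-/- replicate 2, beside 7.24, 6.89 and 6.90 in the other arrays of that tumour type. The mean over the 25 genes of all endothelium was the lowest of that type in the same array, at 6.28 beside 6.49, 6.59 and 6.45. The number of higher genes in that tumour type was 0 without control replicate 2 and 1 without control replicate 3 or p53-/-RBPjk-/- replicate 1, 3 or 4. In PDGF+p53-/-RBPjk-/- tumours 2 genes were lower when control replicate 1 or 4 or their own replicate 4 was left out.

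Of 35 other genes of brain endothelial transport, junctions and Wnt-driven identity, 32 were measured. Of these, 3 were higher and 7 lower in PDGF+p53-/- tumours, 4 and 7 in PDGF+p53-/-RBPjk-/- tumours and 3 and 8 in p53-/-RBPjk-/- tumours, with medians of -0.03, 0.00 and -0.11. In either direction 31.1%, 33.6% and 36.8% of all genes were called, so these counts lie near the share of all genes. The tissue was not sorted, and the genes of this list were not checked to be exclusive to endothelium. In the same comparisons all 9 neuron genes were lower and all 7 genes of glial precursors and cycling cells higher. Their part in the falls and rises of this list was not tested. Car4, a carbonic anhydrase of capillary endothelium, was at 5.79, 6.02, 7 and 6.41 in PDGF+p53-/- tumours, 5.76, 5.96, 6.58 and 6.76 in PDGF+p53-/-RBPjk-/- tumours and 5.88, 5.84, 6.38 and 6.51 in p53-/-RBPjk-/- tumours, against 7.78, 7.62, 8.48 and 8.84 in control brain. It fell by 1.88, 1.92 and 2.03 on the log2 scale (limma, adjusted p = 0.000102, 7.19e-05 and 3e-05). The secreted proteoglycan Spock2 fell by 1.33, 1.45 and 1.59 (adjusted p = 2.22e-05, 7.5e-06 and 1.92e-06). Slc22a8, an organic anion transporter of the barrier, fell by 1.01, 1.24 and 1.13 (adjusted p = 5.64e-05, 6.09e-06 and 1.22e-05). Itm2a fell by 1.04, 0.82 and 0.89 (adjusted p = 0.00241, 0.0115 and 0.00601). Tfrc, the transferrin receptor, fell by 0.66, 0.58 and 1.04 (adjusted p = 0.0259, 0.0462 and 0.000789). Slc39a10, a zinc carrier, fell by 0.65, 0.61 and 0.93 (adjusted p = 0.00107, 0.00165 and 2.5e-05). Sox17, a transcription factor of arterial endothelium, fell by 0.77 in PDGF+p53-/- and by 0.61 in p53-/-RBPjk-/- tumours (adjusted p = 0.0108 and 0.0356). Its mean was only 4.98 in control brain, where the median over all genes was 6.29, so it is a dim gene. Bsg, the partner of monocarboxylate carriers, fell by 0.43 in p53-/-RBPjk-/- tumours (adjusted p = 0.0166).

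The higher genes of this list were Tspan12, the partner of the Norrin receptor Fzd4, by 0.99, 1.2 and 0.92 (adjusted p = 0.000148, 1.72e-05 and 0.000206), and the amino acid carriers Slc7a5, by 1.03, 0.78 and 0.89 (adjusted p = 0.00471, 0.0242 and 0.00992), and Slc7a1, by 0.68, 0.95 and 0.76 (adjusted p = 0.0169, 0.0015 and 0.00733). Atp10a was higher in PDGF+p53-/-RBPjk-/- tumours, by 0.97 (adjusted p = 0.00105). The Wnt target genes Apcdd1, Axin2 and Lef1 had differences between -0.76 and 0.14. Lef1 was at 5.98 to 6.51 in PDGF+p53-/-RBPjk-/- tumours and 6.19 to 6.69 in p53-/-RBPjk-/- tumours, against 6.76 to 7.33 in control brain. Every array of these tumour types was below every control array, but Lef1 was not called. PDGF+p53-/- tumours spanned 6.05 to 8.28 for Lef1, on both sides of control brain. Apcdd1 overlapped control brain in all 3 tumour types. Only 1 of the differences was called, Axin2 in PDGF+p53-/-RBPjk-/- tumours at -0.29 (adjusted p = 0.0499). Axin2 missed the threshold when any 1 of 12 arrays was left out (up to 0.134) and with a sex term (0.0628). Tfrc lost its call when a single array was left out, in PDGF+p53-/- tumours with control replicate 2 or their own replicate 1 or 4 left out (adjusted p up to 0.102), and in PDGF+p53-/-RBPjk-/- tumours with control replicate 2, 3 or 4, their own replicate 1, 3 or 4 or p53-/-RBPjk-/- replicate 3 or 4 left out (up to 0.155). Slc7a5 lost its call in PDGF+p53-/-RBPjk-/- tumours when control replicate 3 or 4 or their own replicate 2 or 4 was left out (up to 0.077), and Slc7a1 in PDGF+p53-/- tumours when control replicate 3 or their own replicate 2 was (up to 0.0599). In p53-/-RBPjk-/- tumours Sox17 missed the threshold without control replicate 1, 2 or 4 or their own replicate 1 or 2 (up to 0.141) and with a sex term (0.0786), and Bsg without control replicate 4 or their own replicate 3 (0.0564 and 0.0535).

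Genes of permeable, sprouting or inflamed endothelium were 14 on the list and 13 on the array. In PDGF+p53-/- tumours 4 were higher and 0 lower, in PDGF+p53-/-RBPjk-/- tumours 5 and 0, and in p53-/-RBPjk-/- tumours 3 and 1, with medians of 0.45, 0.54 and 0.31. Among all genes 13.6%, 15.7% and 16.4% were higher and 17.6%, 17.9% and 20.4% lower. Angpt2, the angiopoietin that loosens vessels, was at 7.70, 8.71, 6.62 and 8.25 in PDGF+p53-/- tumours, 8.48, 8.29, 8.49 and 7.33 in PDGF+p53-/-RBPjk-/- tumours and 8.24, 6.97, 7.35 and 7.17 in p53-/-RBPjk-/- tumours, against 5.90, 6.58, 5.34 and 5.56 in control brain. Every tumour array was above every control array, and the log2 differences were 1.97, 2.30 and 1.59 (limma, adjusted p = 0.000829, 0.00018 and 0.00379). The tip-cell gene Esm1 was higher by 2.02 and 1.81 in the PDGF types (adjusted p = 0.0199 and 0.0337), with 1.61 in p53-/-RBPjk-/- tumours (adjusted p = 0.0535). Cav1, the coat protein of caveolae, was higher by 1.40 in PDGF+p53-/-RBPjk-/- and by 1.06 in p53-/-RBPjk-/- tumours (adjusted p = 0.00178 and 0.0116), with 0.76 in PDGF+p53-/- tumours (adjusted p = 0.0757). Cav2 was higher by 0.79 and 0.82 in the PDGF types (adjusted p = 0.0106 and 0.008). The peptide Apln was higher by 0.78 in PDGF+p53-/- tumours (adjusted p = 0.00893). Its receptor Aplnr was higher by 0.80 in PDGF+p53-/-RBPjk-/- and by 0.71 in p53-/-RBPjk-/- tumours (adjusted p = 0.0272 and 0.0443), calls that were lost when single arrays were left out (up to 0.0925 and 0.156) and, in p53-/-RBPjk-/- tumours, with a sex term (0.131).

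Plvap, the diaphragm protein of permeable vessels, went the other way in this list, with differences of -0.32, -0.36 and -0.56, the last of them called (adjusted p = 0.00299). The number of higher genes in PDGF+p53-/-RBPjk-/- tumours was 8 without PDGF+p53-/- replicate 4, and 3 when control replicate 4 or their own replicate 2 or 3 was left out; 1 gene was lower when control replicate 4, PDGF+p53-/- replicate 2 or their own replicate 2 was. In p53-/-RBPjk-/- tumours it was 5 without p53-/-RBPjk-/- replicate 2. Esm1 lost its call in PDGF+p53-/- tumours when control replicate 3 or their own replicate 2 or 4 was left out (adjusted p up to 0.0765), and in PDGF+p53-/-RBPjk-/- tumours when control replicate 1, 3 or 4 or their own replicate 1, 2 or 3 was (up to 0.0945). Without PDGF+p53-/- replicate 3, Cav1 passed the test in PDGF+p53-/- tumours, at 1.04 (adjusted p = 0.011).

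**Figure D3:**
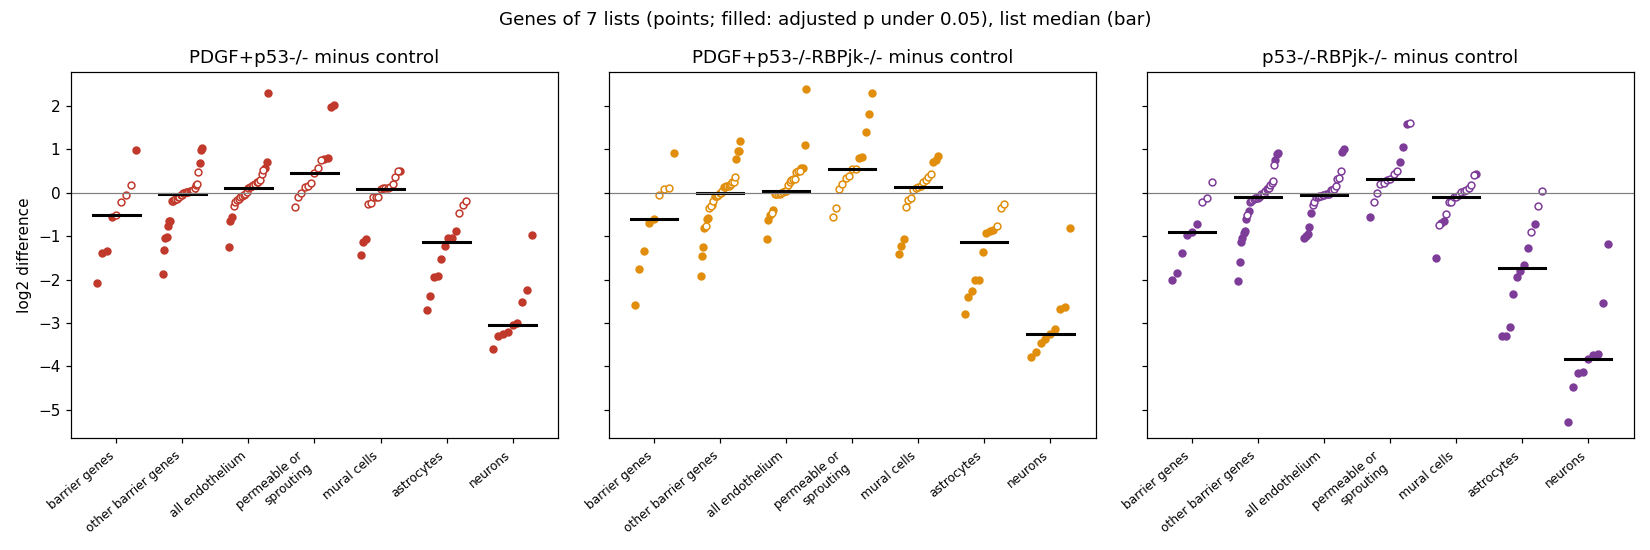
Log2 differences of the genes of 7 lists from control brain, with 1 panel per tumour type; each point is a gene, filled where the adjusted p was under 0.05, and the bar is the list's median. The barrier genes have medians of -0.52, -0.60 and -0.90 and the permeable or sprouting list medians of 0.45, 0.54 and 0.31, while all 9 neuron genes lie below 0.

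Mural cells, the pericytes and smooth muscle around vessels, were read from 17 genes, of which 3 were lower in each tumour type. The lower genes of PDGF+p53-/- tumours numbered 1 without their replicate 2. Higher were 1, 3 and 1 of them, counts that ranged over 0 to 2, 1 to 4 and 0 to 2 when a single array was left out. The 3 of PDGF+p53-/-RBPjk-/- tumours became 1 with control replicate 1, 2 or 3 or their own replicate 3 left out. Among all genes 17.6%, 17.9% and 20.4% were lower and 13.6%, 15.7% and 16.4% higher in the 3 tumour types. The pericyte gene Rgs5 fell by 1.44 and 1.42 in the PDGF types (limma, adjusted p = 0.00842 and 0.00838), with -0.48 in p53-/-RBPjk-/- tumours (adjusted p = 0.374). Atp13a5, a marker of brain pericytes, fell by 1.06, 1.23 and 1.5 (adjusted p = 0.0136, 0.00445 and 0.000779), and in PDGF+p53-/- tumours the call was lost without replicate 1 or 2 (0.0522 and 0.0533). Vtn, vitronectin, fell by 1.14 and 1.06 in the PDGF types (adjusted p = 0.0191 and 0.0269), calls lost when single arrays were left out (up to 0.0781 and 0.0879). Pdgfrb, the PDGF-B receptor of pericytes, had differences of -0.10, 0.15 and -0.64, the last of them called (adjusted p = 0.00872), and the smooth muscle gene Tagln fell by 0.69 in p53-/-RBPjk-/- tumours (adjusted p = 0.0085). The higher genes were Cd248 (endosialin), by 0.51 and 0.71 in the PDGF types (adjusted p = 0.0255 and 0.00267), Acta2 and Abcc9, by 0.84 and 0.76 in PDGF+p53-/-RBPjk-/- tumours (0.0346 and 0.0422), and Des, by 0.43 in p53-/-RBPjk-/- tumours (0.0457). Each of these except Cd248 in PDGF+p53-/-RBPjk-/- tumours missed the threshold when single arrays were left out (up to 0.0928 for Cd248, 0.133 for Acta2, 0.165 for Abcc9 and 0.168 for Des), and Des also with a sex term (0.0524). The mean of the 17 genes was 6.18 to 6.48, 6.30 to 6.65 and 6.13 to 6.38 in the 3 tumour types, against 6.42 to 6.55 in control brain.

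The mean over the 25 genes of all endothelium was 6.33 to 6.81 in PDGF+p53-/-, 6.52 to 6.78 in PDGF+p53-/-RBPjk-/- and 6.28 to 6.59 in p53-/-RBPjk-/- tumours, against 6.41 to 6.62 in control brain. To read the barrier genes beside this level, each array was also centred on that mean, which shifted the median of all genes by -0.10, -0.17 and 0.07 in the 3 comparisons with control brain. Abcb1a was then at -1.49, -1.52 and -1.32 (limma, adjusted p = 2.97e-06, 1.85e-06 and 8.55e-06), and Slco1a4 at -2.17, -2.76 and -1.93. Slco1c1 was at -1.45, -1.92 and -1.77, and Ocln at -0.66, -0.87 and -0.91, all of these called. Slc2a1, at -0.62, -0.78 and -0.83, was called in all 3 tumour types on this scale (adjusted p = 0.0184, 0.00327 and 0.00173). Abcg2, at 0.89 and 0.73, remained called in the PDGF types, and Cldn5 (-0.15, -0.07 and -0.04) and Pecam1 (0.07, -0.09 and -0.15) were not called. The endothelial mean includes dim genes, such as Sox7, Mmrn2 and Nos3 at 5, 5.08 and 5.76 in control brain. It also includes genes called in opposite directions, such as Cd93 and Tek. How well it follows the amount of endothelium was not tested.

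Within groups the pairwise correlations of the 9 genes differed widely. Correlations were taken over the deviations of the 16 arrays from their group means and describe these arrays, which share the normalization. The 2 farthest arrays are those farthest from the median of 1 variable only, so they differ between pairs. This variable is the list mean or, for 2 barrier genes, the gene named first. Pecam1 followed the mean of the 25 endothelial genes, with r = 0.87, and 0.83 without the 2 farthest arrays. Slc2a1 gave 0.68 and, without the 2 arrays, 0.69. For Cldn5 the r of 0.68 fell to 0.34 without the 2 arrays, and for Abcb1a r was -0.01. Cldn5 and Pecam1 gave 0.77, and 0.44 without the 2 farthest arrays. Slco1c1 and Slco1a4 gave 0.69, and 0.35 without them, and Mfsd2a and Slc2a1 gave 0.66, and 0.46 without them. Slco1a4 gave 0.66 with the mean of the neuron genes, and 0.42 without the 2 farthest arrays. With the mean of the astrocyte genes it gave 0.68, and 0.15 without them, and Slco1c1 gave 0.53, and -0.02 without them.

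**Figure D4:**
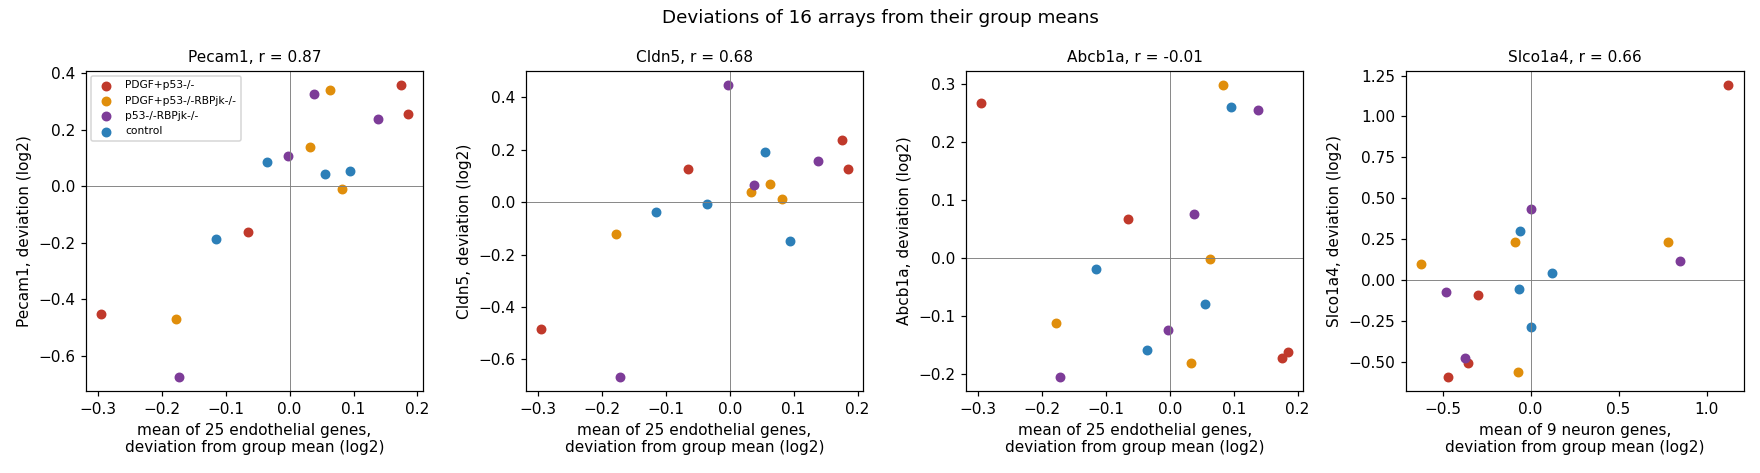
Deviations of the 16 arrays from their group means, in log2 units; the first 3 panels set Pecam1, Cldn5 and Abcb1a against the mean of 25 endothelial genes, the last sets Slco1a4 against the mean of 9 neuron genes, and each point is an array coloured by group. Pecam1 follows the endothelial mean (r = 0.87), Abcb1a does not (r = -0.01), and PDGF+p53-/- replicate 3 is at the far right of the Slco1a4 panel.

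The genes whose within-group pattern was most like each barrier gene were looked up among 11217 genes with a mean of at least 6. For Pecam1 they were the endothelial genes Adgrf5 (r = 0.88) and Emcn (0.86), with Lancl3 (0.86). Slco1c1 was closest to Map7 (0.95), Atl1 (0.91) and Rims2 (0.90), and Slco1a4 to Inpp4a (0.92), Scn8a (0.90) and Stxbp5 (0.90), where Rims2 and Scn8a are genes of neuronal synapses and axons. Slc2a1 was closest to Banf1 (0.90), Patl1 (0.89) and Bhlhe40 (0.87), Mfsd2a to Cacng4 (0.90), Tafa5 (0.87) and Sergef (0.85), and Cldn5 to Tube1 (0.89), Cd82 (0.89) and Cdc40 (0.86). Abcb1a was closest to Nkx2-5 (0.85), Tiam2 (0.82) and Col1a1 (0.79), Abcg2 to Pde12 (0.87), Morf4l2 (0.86) and Ola1 (0.85), and Ocln to Fancg (0.87), Faap100 (0.79) and Tpbgl (0.78). These are the highest of many correlations over 16 arrays and are given as a description.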

How the data were processed

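Total RNA of 16 samples was hybridised to Affymetrix arrays. The authors deposited log2 values per probe set, which the submitters' processing notes credit to RMA and oligo. No source used here names their versions, the annotation build or a filter. Of 35556 probe sets, 21789 carry 1 gene symbol, 1621 several and the rest none; the probe set with the highest mean stands for a gene, giving 19938 genes, of which 999 have several. For 6 comparisons, limma (version 3.58.1, under R 4.3.3) was fitted to all genes with 12 residual degrees of freedom, and two-sided p-values from eBayes were adjusted by Benjamini-Hochberg. Python 3.11.15 made the other tables. The script was tested on simulated data. The number of arrays limits the precision.

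The genes and lists were chosen with earlier results of these data known. Named are all members, their measured relatives and, from the endothelial and mural lists, called genes, up to 4 rises and 4 falls per tumour type by size; marker lists of other cells are given as counts. Slc39a10, Sox17, Bsg, Cdh5, the junction genes and the Wnt target genes were chosen after their values were seen. Alternatives changed the probe set rule, dim gene filter, variance prior, scaling, weights, arrays, covariates and test.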

Additional observations from a re-analysis of the deposited data

Results flagged for a closer look

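An array was looked at again where its gap to the nearest other array of its group of 4 took up more of the group's range than Dixon's 95% critical value. This held for 15 of 200 groups, and chance gives about 5%. Among the barrier genes, Cldn5 was low in PDGF+p53-/- replicate 3, at 6.36 beside a median of 6.97 in the other 3 arrays. Slco1a4 was low in PDGF+p53-/-RBPjk-/- replicate 1, at 4.81 beside 5.60, and Pecam1 in control replicate 3, at 6.41 beside 6.65.

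PDGF+p53-/-RBPjk-/- replicate 4 stood apart for 5 vessel genes: Kdr was at 6.55 beside 7.12, Angpt2 at 7.33 beside 8.48 and Apln at 6.19 beside 6.96, while the pericyte genes Vtn and Atp13a5 were high, at 8.47 beside 6.83 and at 6.97 beside 6.04. Cd93 was high in PDGF+p53-/- replicate 2, at 10.47 beside 8.58. In p53-/-RBPjk-/- replicate 3, Ramp2 was at 7.42 beside 7.63 and Vtn at 7.89 beside 7.41. In control brain, Atp10a was at 6.39 in replicate 4 beside 6.98, Atp13a5 at 7.05 in replicate 2 beside 7.62, and Acta2 at 7.14 in the same array beside 7.51. Axin2 was at 6.78 in PDGF+p53-/-RBPjk-/- replicate 3 beside 6.62.

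The change of Abcg2 from control brain differed between tumour types by the test of the difference itself: p53-/-RBPjk-/- tumours were at -0.66 against PDGF+p53-/-RBPjk-/- tumours and at -0.74 against PDGF+p53-/- tumours (limma, adjusted p = 0.0496 and 0.0205). Both calls were lost when some single arrays were left out and with a sex term in the limma fit (adjusted p = 0.247 and 0.132). Sex pattern and tumour type, which includes the way the genes were deleted, cannot be told apart well here.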

How the results depend on the processing

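Of 54 differences of the 9 barrier genes in 6 comparisons, 19 were called, and none of these reversed under an alternative. The call was kept under every alternative that could be run for 14 of them, and 5 lost it under at least 1: Ocln in PDGF+p53-/-, Slc2a1 in PDGF+p53-/-RBPjk-/- and Mfsd2a in p53-/-RBPjk-/- tumours against control brain, and both Abcg2 differences between tumour types. Of the other named genes, 86 of 123 differences from control brain were called and 37 of these lost the call under at least 1 alternative. With single arrays left out, the number of barrier genes called was 4 to 6 in PDGF+p53-/-, 5 to 6 in PDGF+p53-/-RBPjk-/- and 5 to 6 in p53-/-RBPjk-/- tumours against control brain, 0 for PDGF+p53-/-RBPjk-/- against PDGF+p53-/- tumours, and 0 to 1 for p53-/-RBPjk-/- tumours against either PDGF type. For p53-/-RBPjk-/- against PDGF+p53-/-RBPjk-/- tumours it was 0 in place of 1 with every probe set tested, housekeeping centring, centring on the mean or (chosen after seeing the data) the median of the endothelial genes, a sex term or an adjusted p under 0.01, and 2 with the exact permutation test. For p53-/-RBPjk-/- against PDGF+p53-/- tumours it was 0 in place of 1 with either endothelial centring, a fit to the 2 groups alone, a sex term or an adjusted p under 0.01. The cause was not tested.

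Centring on the endothelial mean moved the share of higher genes among all calls to 33.4% in place of 43.5% for PDGF+p53-/- and 29.9% in place of 46.6% for PDGF+p53-/-RBPjk-/- tumours against control brain, and to 70.5% in place of 19.5% and 70.0% in place of 34.8% for p53-/-RBPjk-/- against PDGF+p53-/-RBPjk-/- and PDGF+p53-/- tumours. Housekeeping centring moved those last shares to 42.7% and 51.7%. Of the 10 housekeeping genes 7 were themselves called against control brain in each tumour type. Of these 4, 4 and 3 were higher and 3, 3 and 4 lower, where 31.1%, 33.6% and 36.8% of all genes were called. The mean of the 10 was 10.89 in control brain and 10.90, 10.94 and 10.84 in the tumour types. How steady a reference they give was not tested. Of the 4 genes called for PDGF+p53-/-RBPjk-/- against PDGF+p53-/- tumours, 75% were higher, and 50% of those called under either centring. The titles number the arrays of every group alike. Deviations from the group means of arrays with the same number correlated at -0.121 to 0.182. In no pair of groups were all 4 over 0.1. Replicate 3 gave 0.176, 0.169 and 0.156 between the 3 tumour types, and 0.0277, -0.095 and -0.0571 between them and control brain. It also had the highest neuron gene mean of each group, at 8.78, 8.25 and 7.63 in the 3 tumour types and 10.57 in control brain. What arrays of 1 number share was not tested. With the replicate number as a block the counts called were 5, 6 and 6 for the 3 tumour types against control brain, then 0, 1 and 1 between tumour types. Among the other named genes the block ended the calls of Adgrf5 in PDGF+p53-/-, of Abcc9, Axin2, Cd34 and Nos3 in PDGF+p53-/-RBPjk-/- and of Aplnr, Cd93 and Des in p53-/-RBPjk-/- tumours (adjusted p = 0.0505 to 0.0728), and Vtn passed in p53-/-RBPjk-/- tumours (0.0483). Dim probe sets limit Ocln, which is left out where dim genes are dropped.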
